A study of Gallus gallus with 6 samples.

Results

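*CDH5* and *APLNR* are genes of the endothelium, the cell layer that lines blood vessels. They were followed through 6 small yellow follicles of the laying hen. The pair was chosen by name, and makes up 2 of the 17992 genes of the deposited table (*CDH5* is gene12295, *APLNR* is gene8222). The table gives gene numbers without symbols, and the names came from the study's list of genes that differed between follicles T4 and T1. Of the genes lower in T4, only the most strongly lowered were available with a name, so both members were nameable because they were low in T4. Their low level in T4 against T1 is therefore described without a test and supports nothing, whereas the values of T5 and T2, and of T6 and T3, did not enter the naming. The choice of the pair was, however, made with earlier results of these data known.

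Each follicle gave 1 poly(A) RNA-seq library. T4, T5 and T6 form one group, and T1, T2 and T3 the other. T4 and T1 were taken from hen 1, T5 and T2 from hen 2, and T6 and T3 from hen 3, a pairing given in the study's text and not in the labels. All hens were Jining Bairi layers of 30 weeks and the follicles are labelled wild type, with no treatment. The study asked what sets apart small yellow follicles that differ in *FSHR*, the receptor for follicle-stimulating hormone. The sample titles call T4, T5 and T6 the follicles with lower *FSHR* and T1, T2 and T3 those with higher *FSHR*. The measured level went against these titles: *FSHR* had 46.4, 18.9 and 27.8 FPKM in T4, T5 and T6, against 11.9, 13.1 and 13.9 FPKM in T1, T2 and T3. FPKM counts the sequenced fragments of a gene per kilobase of transcript, scaled to the mapped fragments of the library. Follicles are named by their numbers throughout, and no direction is drawn from the titles.

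The wall of a hen's follicle holds an inner layer of granulosa cells, which lies against the yolk and has no vessels, and an outer theca, which carries a dense network of capillaries together with fibroblasts, smooth muscle, nerve fibres and blood cells. Yolk precursors and gonadotropins reach the granulosa layer from these thecal vessels. VE-cadherin, the product of *CDH5*, is the adhesion molecule of endothelial junctions. It joins neighbouring endothelial cells and is linked to the cytoskeleton through catenins. *APLNR* encodes the apelin receptor, a G protein-coupled receptor of the endothelium that binds the peptides apelin and ELABELA and takes part in the growth of vessels in mouse and zebrafish. A follicle was sequenced whole, so fewer cells of a type and less RNA per cell cannot be told apart in these data.

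In the table, *CDH5* lies on chromosome 11 on the minus strand, from 10982163 to 11011694, a span of 29532 bases for a listed length of 4809 bases. *APLNR* lies on chromosome 5 on the plus strand, from 16355389 to 16356501, and its span equals its listed length of 1113 bases. Which genome build these positions refer to could not be settled from the labels and methods. Neither gene overlaps another gene of the table. Both had 1 FPKM or more in all 6 follicles. The libraries held 12554905 to 13933207 fragments on genes, estimated from the steps between low values.

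*CDH5* had 3.61, 17.2 and 23.4 FPKM in T4, T5 and T6, against 16.0, 13.1 and 36.0 FPKM in T1, T2 and T3. T4 was the lowest follicle and T3 the highest, and the other 5 follicles spanned a 2.74-fold range without T4. The groups overlapped, with T5 above both T1 and T2. The deposited normalized counts, which are scaled for library size but not for length, placed the follicles in the same order. They were 196, 1065 and 1372 in T4, T5 and T6, against 938, 729 and 2037 in T1, T2 and T3. Averages were 14.7 ± 10.1 FPKM in T4 to T6 and 21.7 ± 12.5 FPKM in T1 to T3 (SD, n = 3 each).

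*APLNR* had 3.69, 26.2 and 18.6 FPKM in T4, T5 and T6, against 19.2, 25.002 and 22.6 FPKM in T1, T2 and T3. T4 again stood alone, and the other 5 follicles lay within a 1.41-fold range, narrower than that of *CDH5*. T5 was the highest follicle, so the groups overlapped here as well. Normalized counts were 50.7, 360 and 253 in T4, T5 and T6, against 263, 344 and 311 in T1, T2 and T3. The means were 16.2 ± 11.5 FPKM in T4 to T6 and 22.3 ± 2.93 FPKM in T1 to T3 (SD, n = 3 each).

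**Figure D1:**
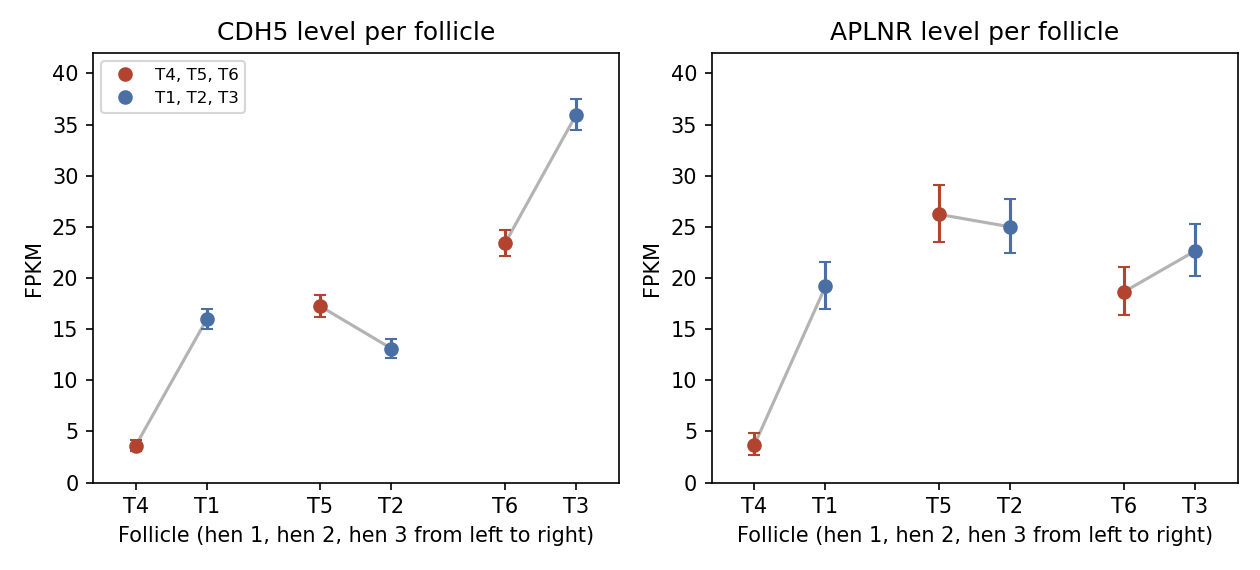
FPKM of *CDH5* (left) and *APLNR* (right) in each follicle, with 95% Poisson intervals of the fragment count. Grey lines join the follicles of a hen. T4 lies at 3.61 and 3.69 FPKM, below the 5 other follicles for both genes.

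The order of *CDH5* levels from high to low was T3, T6, T5, T1, T2 and T4. In FPKM, the 95% Poisson intervals of T5 (16.2 to 18.3) and T1 (14.996 to 17.0) overlapped. All other neighbours in the order had separate intervals. Normalized counts set T5 and T1 further apart, at 1065 and 938. No intervals were made in that unit, so the overlap is stated for FPKM only. For *APLNR* the order was T5, T2, T3, T1, T6 and T4. Here each neighbouring pair overlapped except the last, with 2.74 to 4.87 FPKM in T4 and 16.4 to 21.1 FPKM in T6. The intervals rest on about 193 to 2113 fragments for *CDH5* and 50 to 353 fragments for *APLNR*, with T4 the lowest in both. They cover counting error only. With 1 library per follicle, the spread between repeated libraries is unknown.

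Within a follicle, both genes were of middling rank among the genes at 1 FPKM or more, except in T4. *CDH5* exceeded 19.0%, 56.6% and 62.5% of these genes in T4, T5 and T6, against 53.0%, 48.3% and 75.0% in T1, T2 and T3. *APLNR* exceeded 19.3%, 67.6% and 55.9% in T4, T5 and T6, against 58.2%, 65.9% and 63.8% in T1, T2 and T3. In T4 the genes thus stood almost level with each other.

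In hen 1, *CDH5* was 4.003-fold lower in T4 than in T1 (log2 ratio -2.001) and *APLNR* 4.70-fold lower (log2 ratio -2.23). These and the following within-hen ratios are of FPKM + 0.5, each is a ratio of 1 follicle to 1 follicle, and none has a replicate. Among the 12688 genes with at least 1 FPKM in T4 or T1, 2.48% had a lower ratio than *CDH5* (315 genes) and 1.24% a lower ratio than *APLNR* (157 genes). For *APLNR* this share was 2.11% with 0.1 in place of 0.5 FPKM added, and 2.07% in normalized counts. Over all of these genes 13.3% were at least 2-fold lower in T4 and 2.51% at least 4-fold lower, with a median log2 ratio of 0.01. Among genes within 2-fold of the member's own level in T1, 2.53% had a lower ratio than *CDH5* (115 of 4552) and 1.12% a lower ratio than *APLNR* (50 of 4472). In normalized counts the share for *CDH5* was 1.36%. Since strong lowering in T4 was what gave the genes their names, these positions near the low end follow from the choice.

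The other hens, whose values did not enter the naming, gave small ratios of mixed direction. In hen 2, *CDH5* was higher in T5 than in T2 (log2 ratio 0.38), and 88.7% of 12585 genes had a lower ratio. *APLNR* was nearly level in hen 2 (log2 ratio 0.07), with 60.7% of genes below it. In hen 3 both genes were lower in T6 than in T3, with log2 ratios of -0.61 for *CDH5* and -0.27 for *APLNR*. Of 12706 genes in hen 3, 11.6% had a lower ratio than *CDH5* and 26.5% a lower ratio than *APLNR*. No ratio of a member reached 2-fold in either hen, where 3.31% of genes were at least 2-fold lower and 1.46% at least 2-fold higher in T5, and 4.41% lower and 2.61% higher in T6. The median log2 ratio over all genes was -0.02 in hen 2 and 0.01 in hen 3.

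**Figure D2:**
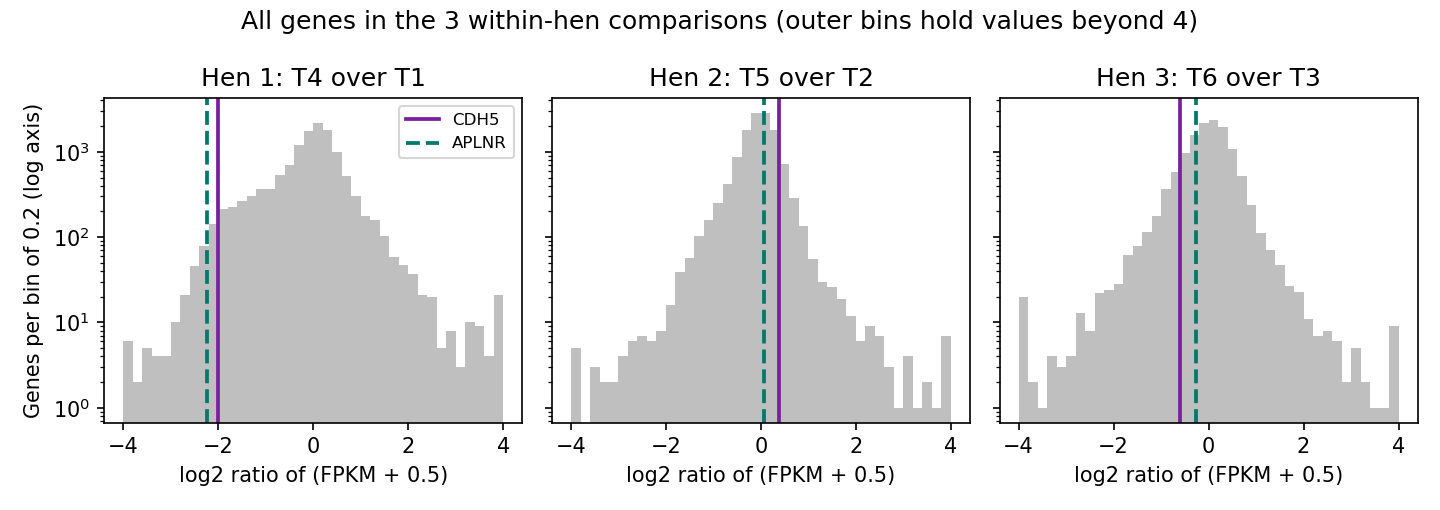
Distribution of the log2 ratio over all genes at 1 FPKM or more in either follicle of a hen, with T4 over T1, T5 over T2 and T6 over T3 from left to right. Vertical lines mark *CDH5* (solid) and *APLNR* (dashed). They lie at -2.001 and -2.23 in the left panel, at 0.38 and 0.07 in the middle panel, and at -0.61 and -0.27 in the right panel.

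T4 was also set against the other 5 follicles together, which asks whether the low value belongs to T4 or to a high value in T1. *CDH5* in T4 was 3.63-fold below the lowest other follicle (T2) and 9.95-fold below the highest (T3). *APLNR* in T4 was 5.05-fold below the lowest other follicle (T6) and 7.10-fold below the highest (T5). Of the 12381 genes with at least 1 FPKM in 3 or more follicles, T4 was the lowest follicle for 29% and at least 2-fold below all others for 8.25% (1022 genes). A drop at least as large as 4-fold below all others, which *APLNR* met on the log2(FPKM + 0.5) scale and *CDH5* did not, was seen for 0.864% of genes. On that scale 279 genes (2.25%) stood further below their other follicles than *CDH5*, and 48 genes (0.388%) further than *APLNR*. For *APLNR* there were 95 such genes (0.767%) with 0.1 FPKM added and 123 (0.993%) in normalized counts. This comparison contains T4, so it too describes genes chosen for being low there.

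The 1022 genes that were at least 2-fold below all others in T4 were then read in the hens without T4. Their median log2 ratio was 0.19 in T5 over T2 and -0.12 in T6 over T3, against -0.02 and 0.02 over all 12381 genes. Of the 1022, 215 were lower in T5 and 632 lower in T6, against 6471 and 5955 of all 12381 genes. *CDH5* and *APLNR* lay on the more frequent side of the 1022 in both hens, being higher in T5 and lower in T6. The lowest of the other 5 follicles enters the choice of the 1022 genes, so these shares are a description.

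Over the 3 hens, *CDH5* was lower in T4 to T6 than in T1 to T3 by a mean log2 ratio of -0.74 (SE 0.44), with an adjusted p of 0.774 in limma with the hen as a block. *APLNR* had a mean log2 ratio of -0.81 (SE 0.46) and an adjusted p of 0.774. *CDH5* and *APLNR* were each lower in 2 of 3 hens, and neither passed the test. The lowering in hen 1 followed from the naming and enters this count, both means and the test, so they are descriptions. Of the 12381 genes tested, 0 (0%) passed an adjusted p of 0.05 in limma, and 708 had an unadjusted p under 0.05. Without hen 1, the mean log2 ratio was -0.11 (SE 0.21) for *CDH5* and -0.10 (SE 0.21) for *APLNR*, with adjusted p of 0.901 and 0.908 in limma. Each SE here is that of limma, moderated with the spread of the other genes, and is not the plain spread over the hens. Hens 2 and 3 had log2 ratios of 0.38 and -0.61 for *CDH5*, and of 0.07 and -0.27 for *APLNR*. In that fit of 2 hens 466 genes (3.76%) passed, 261 of them lower and 205 higher in T5 and T6, although the count dropped to 125 without the robust estimate of the spread. Most of the size of the negative mean over the 3 hens thus came from hen 1 for both genes, while the sign stayed negative without it.

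The ratio of *CDH5* to *APLNR* within a follicle does not depend on library size, and in FPKM it is corrected for length. Its absolute value depends on the gene lengths used for that correction, so a ratio near 1 is not read as equal amounts of RNA. The ratio was 0.979 in T4 against 0.832 in T1, 0.657 in T5 against 0.524 in T2, and 1.26 in T6 against 1.59 in T3. In T4 the ratio was close to 1, and its 95% counting interval (0.714 to 1.36) covered that of T1 (0.729 to 0.953). Relative to T1, *CDH5* and *APLNR* were lower in T4 by about the same factor, within counting error. The T4 interval was separate from those of T2 and T3, so this does not hold against every follicle. Both genes had names only because they were strongly lowered in T4 against T1, so nothing is read from how near their factors lie. In FPKM, hen 2 had intervals of 0.582 to 0.744 in T5 and 0.461 to 0.597 in T2. Hen 3 had 1.10 to 1.44 in T6 and 1.41 to 1.79 in T3, so that each pair overlapped slightly. A slight overlap does not place a difference within counting error, which was not tested. In normalized counts the hen 2 ratios lay further apart, at 2.96 in T5 and 2.12 in T2, without intervals in that unit.

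Across hens the ratio moved more than within them. The mean log2 ratio of *CDH5* to *APLNR* was -0.14 in hen 1. It was -0.75 in hen 2 and 0.49 in hen 3, which gave a 2.36-fold range over the hens. In FPKM the largest difference between follicles of a hen was 1.26-fold, in hen 3, and in normalized counts it was 1.399-fold, in hen 2. The difference between T4 to T6 and T1 to T3 was 0.07 ± 0.35 on the log2 scale (SD, n = 3 hens). It was positive in 2 of 3 hens. A two-sided exact permutation test of this difference gave p = 1. With 3 hens that test cannot go below 0.25, so it could not have called a difference, and nothing is concluded from it. Hen 1 enters the mean difference, the count of hens and the test. Both genes were named through their lowering in T4 against T1, so these values are descriptions. In normalized counts, without the correction for length, the ratio was 3.86 in T4 against 3.57 in T1, 2.96 in T5 against 2.12 in T2, and 5.43 in T6 against 6.54 in T3, in the same order of follicles.

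**Figure D3:**
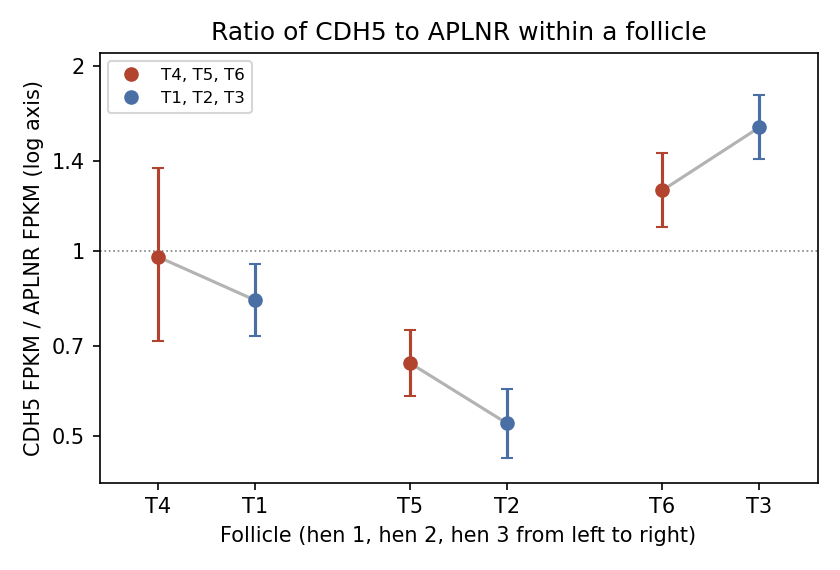
Ratio of *CDH5* to *APLNR* FPKM in each follicle on a log axis, with 95% counting intervals and grey lines joining the follicles of a hen. Hen 2 lies lowest (0.657 in T5, 0.524 in T2) and hen 3 highest (1.26 in T6, 1.59 in T3), while T4 at 0.979 lies near T1 at 0.832.

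The unit touched *CDH5* more than *APLNR*. A unit of FPKM corresponded to 54.1 normalized counts in T4 and 61.8 in T5 for *CDH5*, the lowest and highest of the 6 follicles, but to 13.6 to 13.8 in every follicle for *APLNR*. In normalized counts the hen 1 log2 ratio was -2.26 for *CDH5* and -2.36 for *APLNR*, closer to each other than in FPKM.

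How far the genes moved together was measured by the SD of their log2 ratio over the follicles, which is small when a pair keeps its proportion. Over 6 follicles the SD was 1.06 for *CDH5* alone, 1.01 for *APLNR* alone and 0.58 for their ratio. Without T4 it was 0.55 for *CDH5*, 0.22 for *APLNR* and 0.64 for the ratio, larger than for either gene alone. Among 12380 genes, 8.59% kept their proportion to *CDH5* more closely than *APLNR* did over 6 follicles, and 59.3% did without T4. Conversely, 6.41% kept closer to *APLNR* than *CDH5* did, and 88.1% without T4. The likeness between *CDH5* and *APLNR* thus rested on their shared low value in T4. Both were nameable through that low value, so the shares over 6 follicles follow in part from the choice. These measures come from 6 libraries of 3 hens and are descriptions.

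Genes most like each member were sought among the 228 named genes with a mean of 5 FPKM or more, a pool made up of genes that were higher or strongly lower in T4. For *CDH5* they were *ADAM33* (SD of the log2 ratio 0.161), a metalloprotease gene, *COL3A1* (0.168), a fibrillar collagen, *CLIC2* (0.182), a chloride intracellular channel protein, *DES* (0.194), the desmin of muscle and pericytes, and *ADGRA2* (0.249), an adhesion G protein-coupled receptor. *ADAM33* ranked 6th and *COL3A1* 8th of all 12380 genes. *COL3A1* had 382, 1636 and 2355 FPKM in T4, T5 and T6, against 2024, 1511 and 3436 FPKM in T1, T2 and T3, thus with its peak in T3 as for *CDH5*. Without T4 the nearest were *ADAMTS1*, *ADAM33*, *COL3A1*, *CLIC2* and *LUM*. Of these, *ADAMTS1* ran opposite to *CDH5* in hen 1, with 50.2 FPKM in T4 against 19.4 FPKM in T1.

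For *APLNR* they were *SEMA3G* (SD 0.0907), a secreted semaphorin, *SLIT1* (0.155), a ligand of Robo receptors, *RAMP2* (0.208), the partner protein of the adrenomedullin receptor, *PTPRVP* (0.244), named as a receptor-type tyrosine phosphatase, and *CTSK* (0.2505), cathepsin K. *SEMA3G* was the nearest of all 12380 genes to *APLNR*, with 1.36, 11.1 and 8.39 FPKM in T4, T5 and T6, against 9.28, 10.1 and 9.46 FPKM in T1, T2 and T3. Like *APLNR*, it was highest in T5 and had a flat level outside T4. Without T4 it ranked 52nd of all genes and remained the nearest named gene. The others were then *SLU7*, *TRIM24*, *KLHL36* and *SLIT1*, of which *SLU7*, *TRIM24* and *KLHL36* were higher in T4 than in T1.

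The endothelial list held 52 genes, of which 11 had a name in these data, *CDH5* and *APLNR* included, and 10 passed the filter of 1 FPKM in 3 follicles. The gene that did not pass was *STAB2*, a scavenger receptor, with 0.0772 to 1.89 FPKM. All 10 were at least 2-fold lower in T4 than in T1, as were 13.3% of all genes, a direction that the naming fixed. All 10 were also lowest in T4 of the 6 follicles, as were 29% of all genes, and T4 being low against T1 by the naming enters this count. The 8 apart from the members had log2 ratios of -2.47 to -1.90 in hen 1 with a median of -2.27. In hen 2 their median was 0.21, with 7 of 8 higher in T5, where 52.5% of all genes were lower. In hen 3 the median of the 8 was -0.07, with 5 of 8 lower in T6, where 49% of all genes were lower. The 285 named genes that passed the filter, the pool these 8 came from, had medians of 0.26 in hen 2 and 0.27 in hen 3. Of the 285, 60 were lower in T5 and 97 lower in T6. Most of this pool was unlike the 8 in hen 1, with 182 genes at least 2-fold higher in T4 than in T1 and 87 at least 2-fold lower. The 1022 genes at least 2-fold below all others in T4 had medians of 0.19 in hen 2 and -0.12 in hen 3, near those of the 8. 0 of the 10 passed the limma test over 3 hens, at an adjusted p of 0.774 for each member, or without hen 1. Of all 12381 tested genes, 0 passed over 3 hens and 466 (3.76%) without hen 1.

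*CD34*, a sialomucin of endothelial and progenitor cells, had 12.8, 56.0 and 54.5 FPKM in T4, T5 and T6, against 73.2, 49.1 and 58.1 FPKM in T1, T2 and T3. *RAMP2* had 11.8, 83.8 and 79.9 FPKM in T4, T5 and T6, against 64.2, 69.7 and 74.8 FPKM in T1, T2 and T3. *ACVRL1*, the endothelial BMP9 receptor ALK1, had 5.21, 20.6 and 23.6 FPKM in T4, T5 and T6, against 24.0, 17.1 and 21.3 FPKM in T1, T2 and T3. These genes shared the low T4 and differed among the other follicles, with *CD34* and *ACVRL1* highest in T1 and *RAMP2* highest in T5.

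*SOX7*, an endothelial transcription factor, had 2.38, 16.6 and 13.3 FPKM in T4, T5 and T6, against 11.1, 16.1 and 24.977 FPKM in T1, T2 and T3. It had the lowest ratio of the list in hen 3 (log2 ratio -0.89), below that of *CDH5*. *CLIC2* also peaked in T3, and had 6.76, 36.0 and 54.1 FPKM in T4, T5 and T6, against 34.7, 28.8 and 59.9 FPKM in T1, T2 and T3. *TSPAN18*, a tetraspanin, and *MEOX2*, a homeobox gene, had log2 ratios of -1.90 and -2.26 in hen 1. In hen 3 *TSPAN18* was higher in T6 (0.22) and *MEOX2* nearly level (-0.05).

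Of the list of 32 signals of vessel growth, 12 had a name. The 7 lower in T4 than in T1 were *APLNR*, *SEMA3G*, *RAMP2*, *SLIT1*, *NTN1*, *NDP* and *HGF*, and the 5 higher were *VEGFA*, *SEMA3A*, *SEMA3C*, *SEMA3E* and *ADAMTS1*. Each changed at least 2-fold, whereas 13.3% of all genes were at least 2-fold lower and 5.38% at least 2-fold higher. Names came from genes that differed between T4 and T1, so the change of all 12 follows from the naming. *NDP*, which encodes norrin, a ligand of Frizzled-4, had 5.82 FPKM in T4 against 38.4 FPKM in T1, and *HGF*, the hepatocyte growth factor, had 0.713 FPKM in T4 against 3.33 FPKM in T1. *NTN1*, the guidance ligand netrin-1, had 10.5 FPKM in T4 against 49.4 FPKM in T1. The gene of apelin itself was not among the named genes and was not analysed here.

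*VEGFA*, the main growth factor of endothelium, ran opposite to the members in hen 1, with 69.6, 22.7 and 37.7 FPKM in T4, T5 and T6, against 27.1, 22.8 and 27.3 FPKM in T1, T2 and T3. *SEMA3A*, a secreted semaphorin that binds neuropilin-1, had 94.7, 21.0 and 32.6 FPKM in T4, T5 and T6, against 15.4, 12.2 and 15.3 FPKM in T1, T2 and T3. It was higher in all 3 hens, and was the sole gene of the 12 to pass without hen 1 (limma adjusted p = 0.000847). In that fit 3.76% of all tested genes and 43 of the 285 named genes passed, so this count is a description. *SEMA3A* did not pass without the robust estimate of the spread (limma adjusted p = 0.0625). *SEMA3C* (log2 ratio 1.76) and *SEMA3E* (1.91), of the same family, and *ADAMTS1* (1.35), a matrix protease, were higher in T4 than in T1 as well, while *SEMA3G* was lower.

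Of 14 cadherins and catenins, 3 had a name. *CDH2*, the N-cadherin of granulosa and nerve cells, had 48.8, 28.7 and 40.0 FPKM in T4, T5 and T6, against 17.5, 24.6 and 29.6 FPKM in T1, T2 and T3. T4 was thus the highest follicle for *CDH2* and the lowest for *CDH5*. *CDH2* was higher in T4 to T6 within each hen (log2 ratios 1.46, 0.22 and 0.43), though with overlapping groups and without passing the limma test (adjusted p = 0.774). *CDH22* did not pass the filter, at 0.0701 to 1.07 FPKM.

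Markers of other thecal cells were low in T4 alongside the members, and granulosa markers were high. Of 17 fibroblast and matrix genes 16 had a name, and their summed level was 1322, 5281 and 7683 FPKM in T4, T5 and T6, against 7000, 5115 and 8540 FPKM in T1, T2 and T3. All 16 were lowest in T4, *COL1A2* and *COL3A1* (fibrillar collagens) among them, as were 29% of all genes. T4 being low against T1 by the naming enters this count too. Their median log2 ratio was -2.39 in hen 1, against 0.05 in hen 2 and -0.07 in hen 3. The 3 named of 14 pericyte and smooth muscle genes, *DES*, *ADGRA2* and *NES*, summed to 59.5, 263 and 299 FPKM in T4, T5 and T6, against 280, 201 and 427 FPKM in T1, T2 and T3. *DES* made up most of each sum, with 54.8 FPKM in T4 and 259 FPKM in T1, so the sums describe mainly that gene. The median log2 ratio in hen 1 was -2.25 over the 10 endothelial genes and -2.03 over the pericyte and smooth muscle genes. Lowered genes had a name only when strongly lowered in T4, so nothing is read from how near these medians lie to each other.

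The 3 named of 7 Schwann cell and nerve genes, with *NCAM1*, an adhesion molecule, and *NTRK3*, a neurotrophin receptor, as the most abundant, summed to 6.04, 29.8 and 32.4 FPKM in T4, T5 and T6, against 35.5, 27.9 and 28.2 FPKM in T1, T2 and T3. The 7 named of 14 leukocyte genes, with *SRGN*, a proteoglycan of blood cell granules, and *MPEG1*, of macrophages, as the most abundant, summed to 23.3, 67.7 and 57.5 FPKM in T4, T5 and T6, against 31.1, 64.1 and 151 FPKM in T1, T2 and T3. Of these, 6 were at least 2-fold lower in T4 than in T1, as were 13.3% of all genes. *CD8B*, a T cell co-receptor chain and the most abundant of these leukocyte genes in T4, was higher, with 18.8 FPKM in T4 against 5.89 FPKM in T1. The highest sum of leukocyte genes was in T3, the follicle with the highest *CDH5*, and *SRGN* and *MPEG1* gave 70.0 and 51.6 FPKM of it. T3 also had the highest sums of the endothelial, pericyte and fibroblast lists, while *APLNR* was highest in T5.

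The 8 named of 14 granulosa genes, led by *ZP3*, an egg coat glycoprotein, and *INHA*, the inhibin alpha subunit, summed to 14300.3, 5982 and 5906 FPKM in T4, T5 and T6, against 2585, 3164 and 2560.5 FPKM in T1, T2 and T3. All 8 were at least 2-fold higher in T4 than in T1, as were 5.38% of all genes, with a median log2 ratio of 1.74, against 0.12 in hen 2 and 1.03 in hen 3. No gene with a name on these cell type lists was at 0 in any follicle, and 0 of the 11 red blood cell and thrombocyte genes had a name. Most names on each list were reached through the lowering or raising in T4, so no share of a list in hen 1 is read as a result. The part of the cell makeup of the follicles in the levels of *CDH5* and *APLNR* was not tested.

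**Figure D4:**
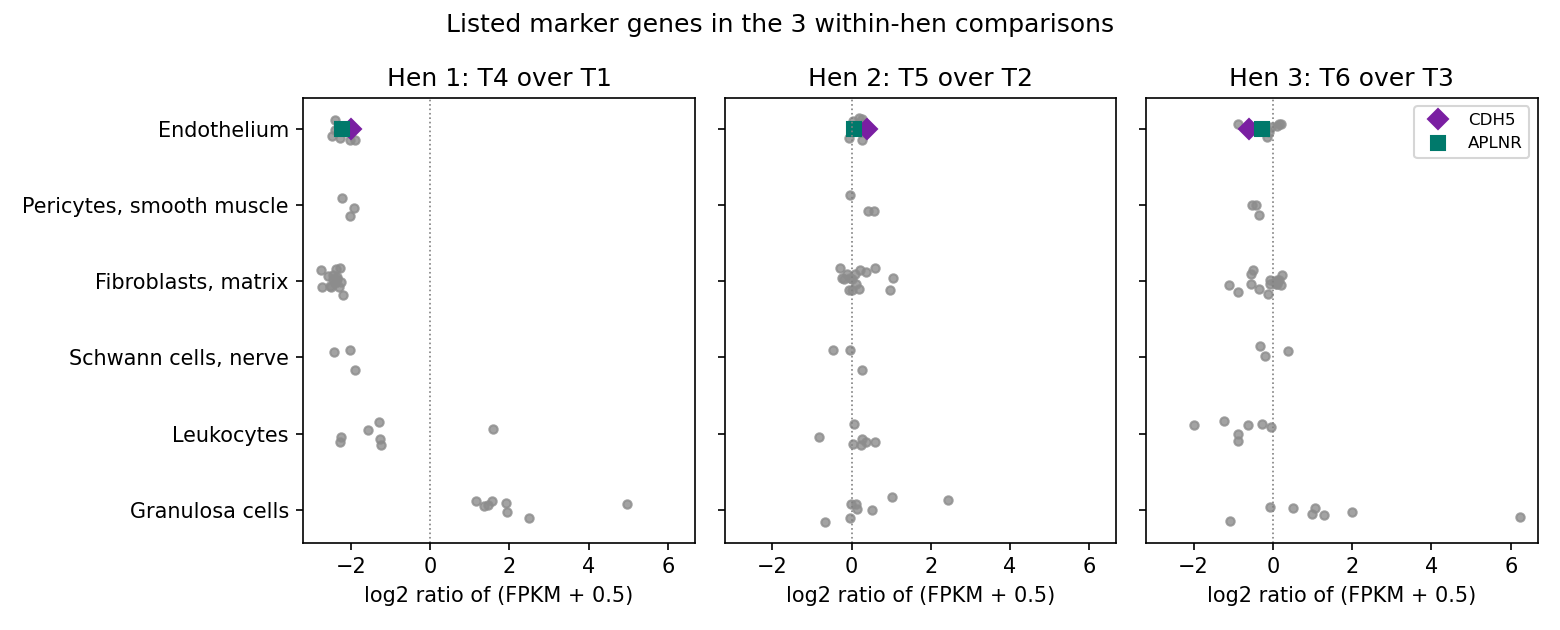
Log2 ratio of (FPKM + 0.5) within each hen for the genes of 6 cell type lists that passed the filter (points), with *CDH5* (diamond) and *APLNR* (square) on the endothelial row. In hen 1 the endothelial, pericyte and fibroblast rows lie near -2 and the granulosa row above 0, whereas in hens 2 and 3 the endothelial row lies around 0.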

How the data were processed

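Whole small yellow follicles were sequenced as poly(A) libraries. Tools listed in the submitters' processing notes are Cufflinks and Bowtie 0.12.2. These notes and the study's methods name different genome builds, and the labels and the methods name different RNA kits. The deposited table holds FPKM, made by the authors per kilobase and library size, and normalized counts, a signal scaled by the authors to library size, for every gene and follicle. A further column that names no sample (1 column) and 1 repeated header line were left out.

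Gene numbers were named through the study's list of genes that differ between T4 and T1, with 306 chicken gene entries, of which 299 matched the RefSeq gene table (assembly GRCg7b, used for names and for assigning chromosomes), and 14 names by description. After setting aside 8 names shared between numbers and 1 on another chromosome, 302 names were used. For each follicle, the steps between low normalized counts gave the value of 1 fragment. Between 88.2% and 88.6% of low values then came out whole (within 0.02), so no count test was run and fragment numbers are approximate.

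The 12381 genes that reached 1 FPKM in at least 3 follicles were fitted with limma 3.58.1 (R 4.3.3) on log2(FPKM + 0.5) with a block for the hen, trend and robust eBayes, two-sided, Benjamini-Hochberg adjusted, limit 0.05. Fold changes on this scale understate those of low genes. The pairing came from the study. Deviations from the group means correlated at 0.43, 0.18 and 0.53 within hens 1, 2 and 3. Between follicles of different hens the correlations were -0.46 to 0.18. T4 and T2, of different hens, reached 0.18, so these values do not single out the pair of hen 2. The follicles are separate samples, 1 per hen and group, so p-values measure how the within-hen difference varied over 3 hens. In limma that spread was moderated with the spread of the other genes. The limma script was tested on simulated data. Within-hen ratios had no test. The text names *CDH5*, *APLNR*, *FSHR*, every named gene on the endothelial, signal and cadherin lists, the 2 most abundant of each other list, and the 5 named genes of at least 5 FPKM nearest to each member; the other pericyte gene, *NES*, the leukocyte gene *CD8B* and the nearest genes without T4 were added after their values were seen. The members and lists were chosen with earlier results of these data known. Alternatives were pseudocounts of 0.1 and 1, median-of-ratios scaling, no filter or 5 FPKM, no hen block, eBayes without trend and robust, normalized counts, and each hen left out. Columns of fold changes were not used.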

Additional observations from a re-analysis of the deposited data

How the results depend on the processing

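All 26 alternatives of the mean log2 ratios of *CDH5* and *APLNR* over the hens kept their direction and side of the limma threshold, and all 24 of the ratios within a hen, which have no test, kept their direction. Leaving out each hen in turn moved the mean from -1.31 to -0.11 for *CDH5* and from -1.25 to -0.10 for *APLNR*, both smallest without hen 1. Adjusted p ranged between 0.731 and 0.999 in limma over all alternatives. Without the replicate block for the hen, the SE was 0.71 for *CDH5* and 0.66 for *APLNR*, the limma adjusted p was 0.962 for both, and 0 genes were called, as with the block (435 genes with an unadjusted p under 0.05). The count of genes called was 0 to 466 when a hen was left out, the 466 being without hen 1. There it was 125 without the robust option and 21 without trend and robust, both added after seeing the data, and it was 0 under the other alternatives. The cause was not tested. The log2 difference of the *CDH5* to *APLNR* ratio turned to -0.01 without hen 1 and to -0.053 without hen 2, and was 0.27 without hen 3, a value that no test separates from 0. The share of genes with a lower ratio than *APLNR* in hen 1 was 2.11% with a pseudocount of 0.1 and 2.07% in normalized counts. Without T4, *APLNR* was the 7338th gene in likeness to *CDH5*, against 1064th with it, and *CDH5* the 10906th in likeness to *APLNR*, against 794th. Median-of-ratios scaling moved no library by 0.1 or more on the log2 scale. With 1 library a follicle and 50 fragments of *APLNR* in T4, differences under about the width of the counting intervals were not detectable. These intervals leave out the spread between hens and between libraries, so wider differences need not have been detectable either. Groups of 3 follicles were too small for the check of outlying samples.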
